A study of Mus musculus with 12 samples.

Results

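The genes described here are 46 genes of DNA replication and S phase, followed through 12 RNA-seq libraries of mouse intestinal stem cells (ISCs). They were taken from a list of gene symbols, with no threshold on their values. The list was chosen with earlier results of these data known. Counts set beside shares over all genes therefore describe the list and do not test it. All 46 were found among the 47729 genes of the count table, and all 46 passed the filter on low counts in every test. For the description they were placed in 10 role groups, from the proteins that mark replication origins to the cyclins that start S phase.

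ISCs were sorted as the cells with the brightest green fluorescence (Lgr5-EGFPhi) from crypts of the small intestine of mice of the genotype Lgr5-EGFP-IRES-CreERT2, which carry the fluorescent protein and a tamoxifen-inducible Cre in the locus of the stem cell gene *Lgr5*. All 4 groups carried this allele, and each had 3 libraries. Ctrl mice went without food and water for the time of the restraint but were not restrained, and stress mice were held in a ventilated tube for 3 h. Vehicle mice received 20% sulfobutylether-β-cyclodextrin by intraperitoneal injection, and CORT mice received corticosterone, the main glucocorticoid of mice, at 5 mg/kg in that vehicle. Exposure is taken here as 1 day. The labels of the stress libraries carry CRS, the abbreviation that the paper uses for chronic restraint. For this experiment the paper describes a single exposure, and the labels do not settle which applies. The methods give mice of both sexes, matched for age, at 8 to 10 weeks, without the sex behind each library. The labels name the stress libraries 1+2, 3 and 4+5+6, which reads as pools of several mice for 2 of them, and they do not say whether the other libraries each came from 1 mouse, so that p-values measure the spread between these libraries. The comparison of stress with Ctrl addresses the response to restraint, and the comparison of CORT with vehicle the response to the hormone alone.

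A cell copies its genome once per division. In G1, the origin recognition complex, Cdc6 and Cdt1 load the ring-shaped MCM helicase onto origins, which is called licensing. At the start of S phase, cyclin E with its kinase and the E2F transcription factors switch on, Cdc45 and the GINS complex join the MCM ring to form the active helicase, and polymerases extend both strands behind it, held to DNA by the sliding clamp PCNA. Ribonucleotide reductase and thymidylate synthase supply the deoxynucleotides, and chaperones rebuild chromatin on the new strands. Crypt base ISCs divide often and are rich in such transcripts. In bulk RNA from sorted cells, fewer cells in S phase and less RNA per cell cannot be told apart.

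The sequences just before the start sites of these genes were read because many replication genes are classic targets of E2F. RefSeq windows of 300 bases (250 before and 50 after the start, build GRCm38.p6) were held for 36 of the 46 genes, and where a gene had several windows the one nearest to its start in the files was taken. The 4 words TTTCCCGC, TTTGGCGC, TTTGCCGC and TTTCGCGC, which are forms of the E2F site, were searched on both strands. At least 1 of them was in 13 of 36 windows (36.1%), while 2.26% of all 32851 windows of the table held one. The MCM helicase genes held most, with 4 of 5 windows, followed by licensing genes with 3 of 4. The CCAAT box was in 22 of 36 windows (61.1%), against 37.4% of all windows, and 9 windows held both. The 15-base glucocorticoid receptor palindrome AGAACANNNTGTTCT was in 0 of 36 windows, and in 0.00913% of all windows. A single arm of it, AGAACA, was in 5 windows (13.9%), against 19% of all. A match of letters is a description of the window and not a bound site.

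Printed first are stretches before the start of 4 genes that passed a test in these libraries, each the 150 bases next to the start that lie in no annotated exon. Capitals mark a CCAAT box in either orientation (CCAAT or ATTGG) or an E2F word. The *Rrm2* stretch held 1 CCAAT box and no E2F word. The *Ccne1*, *Ung* and *Prim1* stretches held neither. The *Rrm2*, *Ccne1*, *Ung* and *Prim1* stretches end 13, 44, 49 and 47 bases before the RefSeq start. In *Prim1*, the part of the window not printed held 1 CCAAT box. Among the other called genes, the *Dtl* window held 1 E2F word and 1 CCAAT box, the *Cdc45* window 2 CCAAT boxes, and the *Lig1* window neither.
Rrm2, chr12:24708091-24708240, plus strand: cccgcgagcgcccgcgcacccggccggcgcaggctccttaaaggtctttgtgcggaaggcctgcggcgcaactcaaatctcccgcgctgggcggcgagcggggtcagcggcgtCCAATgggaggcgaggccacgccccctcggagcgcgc
Ccne1, chr7:38107535-38107684, minus strand: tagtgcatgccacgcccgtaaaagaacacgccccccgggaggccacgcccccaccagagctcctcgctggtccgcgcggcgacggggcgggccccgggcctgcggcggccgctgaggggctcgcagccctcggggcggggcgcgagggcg
Ung, chr5:114130236-114130385, plus strand: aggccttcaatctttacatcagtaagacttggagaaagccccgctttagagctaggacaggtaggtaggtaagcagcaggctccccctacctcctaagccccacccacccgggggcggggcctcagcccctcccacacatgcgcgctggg
Prim1, chr10:128015018-128015167, plus strand: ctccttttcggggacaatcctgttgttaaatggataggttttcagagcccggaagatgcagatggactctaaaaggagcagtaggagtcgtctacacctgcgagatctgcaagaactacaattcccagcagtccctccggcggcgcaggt

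The next stretches are 4 genes with an E2F word, shown in the same way. In *Mcm6*, TTTGGCGC and TTTCGCGC overlap on opposite strands, which gives the first run of capitals its length, and a further E2F word and 2 CCAAT boxes follow. In *Mcm5*, only TTTGGCGC, on the opposite strand, lies whole in the printed stretch, and an overlapping TTTCGCGC begins before it and was not marked for itself. The *Cdc6* stretch lies within the longer gene model of the files, upstream of the RefSeq start.
Cdc6, chr11:98908001-98908150, plus strand: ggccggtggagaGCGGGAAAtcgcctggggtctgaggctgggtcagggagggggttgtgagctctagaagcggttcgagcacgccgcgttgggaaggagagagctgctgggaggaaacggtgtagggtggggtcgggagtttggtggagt
Mcm5, chr8:75109359-75109508, plus strand: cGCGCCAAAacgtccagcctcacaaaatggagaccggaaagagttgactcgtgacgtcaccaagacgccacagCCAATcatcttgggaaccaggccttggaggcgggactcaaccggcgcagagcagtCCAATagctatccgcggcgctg
Mcm6, chr1:128359706-128359855, minus strand: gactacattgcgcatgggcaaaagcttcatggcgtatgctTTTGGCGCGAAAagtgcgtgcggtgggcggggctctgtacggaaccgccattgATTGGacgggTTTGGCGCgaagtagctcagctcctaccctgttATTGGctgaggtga
Pola1, chrX:93632156-93632305, minus strand: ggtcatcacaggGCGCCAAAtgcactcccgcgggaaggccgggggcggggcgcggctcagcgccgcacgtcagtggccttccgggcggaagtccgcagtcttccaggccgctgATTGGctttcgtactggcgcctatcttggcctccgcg

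Levels per length, as FPKM, spanned a wide range within the 46 genes. *Pcna*, the sliding clamp, was highest with a mean of 170 FPKM over the 12 libraries, and *Orc1*, the largest subunit of the origin recognition complex, lowest with 4.01 FPKM. The median gene had 26.4 FPKM. After *Pcna* came the helicase subunits *Mcm6* (94.9 FPKM) and *Mcm7* (81.7 FPKM), and then *Slbp*, which binds the stem-loop of histone mRNAs, with 54.2 FPKM. The low end also held *Exo1* (4.72 FPKM), an exonuclease of repair, *Cdc6* (5.43 FPKM), *Ccne2* (5.72 FPKM) and *Ccne1* (6.9 FPKM). Neighbours in this order mostly lay closer together than the spread between libraries: in Ctrl, *Mcm2* was at 54.7 ± 5.08, *Mcm5* at 52.2 ± 3.41 and *Mcm3* at 49.7 ± 2.85 FPKM (mean ± SD, n = 3). *Pcna* stood apart in every group, at 175 ± 7.05 FPKM for Ctrl, 137 ± 19.2 for stress, 172 ± 5.93 for vehicle and 197 ± 29.3 for CORT (SD, n = 3).

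**Figure D1:**
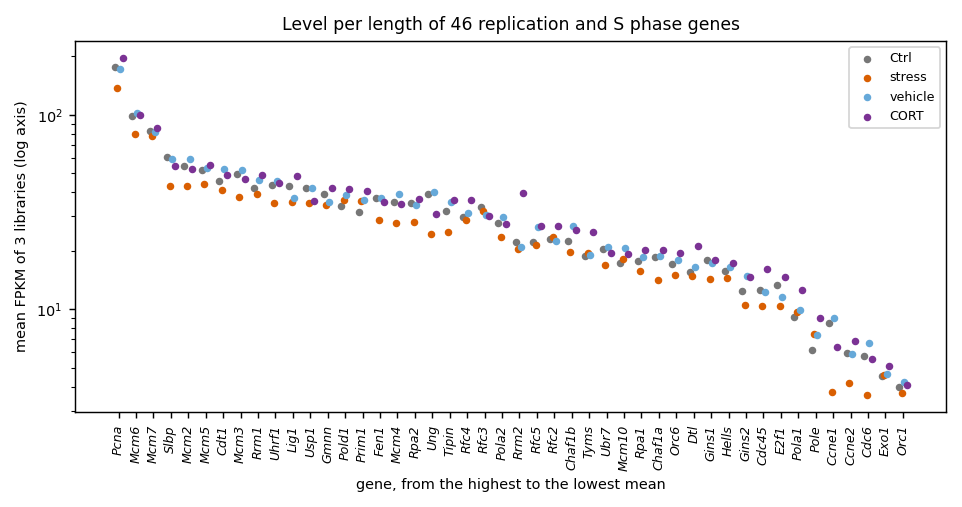
Mean FPKM (level per transcript length, log axis) of 3 libraries for each of the 46 genes, ordered by the mean over 12 libraries, with 1 coloured point per group. The levels run from *Pcna* (170 FPKM) to *Orc1* (4.01 FPKM), and the stress points of *Ccne1* and *Cdc6* and the CORT point of *Rrm2* stand away from the other groups of the same gene.

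Total estimated counts were 16152289 to 16943362 for Ctrl, 15934907 to 17135770 for stress, 16465961 to 31280267 for vehicle and 29426183 to 69533214 for CORT, so CORT libraries were on the whole the deepest. The lowest count of any of the 46 genes in a library was 100. Of 6 ISC markers, 0 were at 0 in any library, 1 was called lower in stress and 3 in CORT, and their summed level was 10678 to 13938 CPM (counts scaled to the size of the library). Markers of blood cells and of stromal and endothelial cells were at or near 0, with median levels of at most 0.318 and 0.155 CPM. The 6 enterocyte markers had a summed level of 179 to 202 CPM for Ctrl, 322 to 1685 for stress, 137 to 190 for vehicle and 125 to 191 for CORT, and 5 of 6 were called higher in stress. None of the 6 was at 0 in any library. The 6 Paneth cell markers summed to 173 to 199 CPM in vehicle and 93.4 to 106 in CORT, with 4 of 6 called lower, while in stress all 6 had a log2 fold change above 0 (median 0.54) and 1 was called higher. Of 6 goblet cell markers, 5 were above 0 in stress (median log2 fold change 0.51) and 1 was called higher, with a summed level of 521 to 666 CPM for Ctrl and 501 to 1352 for stress. The part of these lists in the results was not tested.

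After restraint, most replication genes lay below Ctrl by small steps, and few passed the test. Compared to Ctrl, 40 of 46 genes had a log2 fold change below 0, with a median of -0.20, while the median of all 13722 genes tested was -0.0028. In edgeR's quasi-likelihood test with Benjamini-Hochberg adjustment over all genes and a threshold of 0.05, 2 of 46 were called lower, *Ccne1* and *Ung*, and 0 were called higher. Among all genes tested, 0.59% were called lower and 1.3% higher. At an unadjusted p under 0.05 there were 19 of 46, where 15.2% of all genes tested were. In 20 of 46 genes, every stress library lay below every Ctrl library, and in 0 above, where 10.2% of all genes tested were separated in each direction. The count of genes called lower changed when 1 library was left out. It was 10 without stress 3, 1 without stress 4+5+6 and 0 without stress 1+2 or any of the Ctrl libraries. With a Ctrl library left out, the log2 fold change was -1.17 to -1.12 for *Ccne1* and -0.67 to -0.55 for *Ung*. Whether the lost calls reflect the library or the smaller group was not tested. Without stress 1+2, the log2 fold changes of the 46 genes had their median at -0.13. Their median level was lowest in stress 1+2 (-0.34 on the log2 scale from the mean of 12 libraries), where enterocyte markers summed to 830 CPM, and it was -0.13 in stress 3 with 322 CPM and -0.17 in stress 4+5+6 with 1685 CPM.

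**Figure D2:**
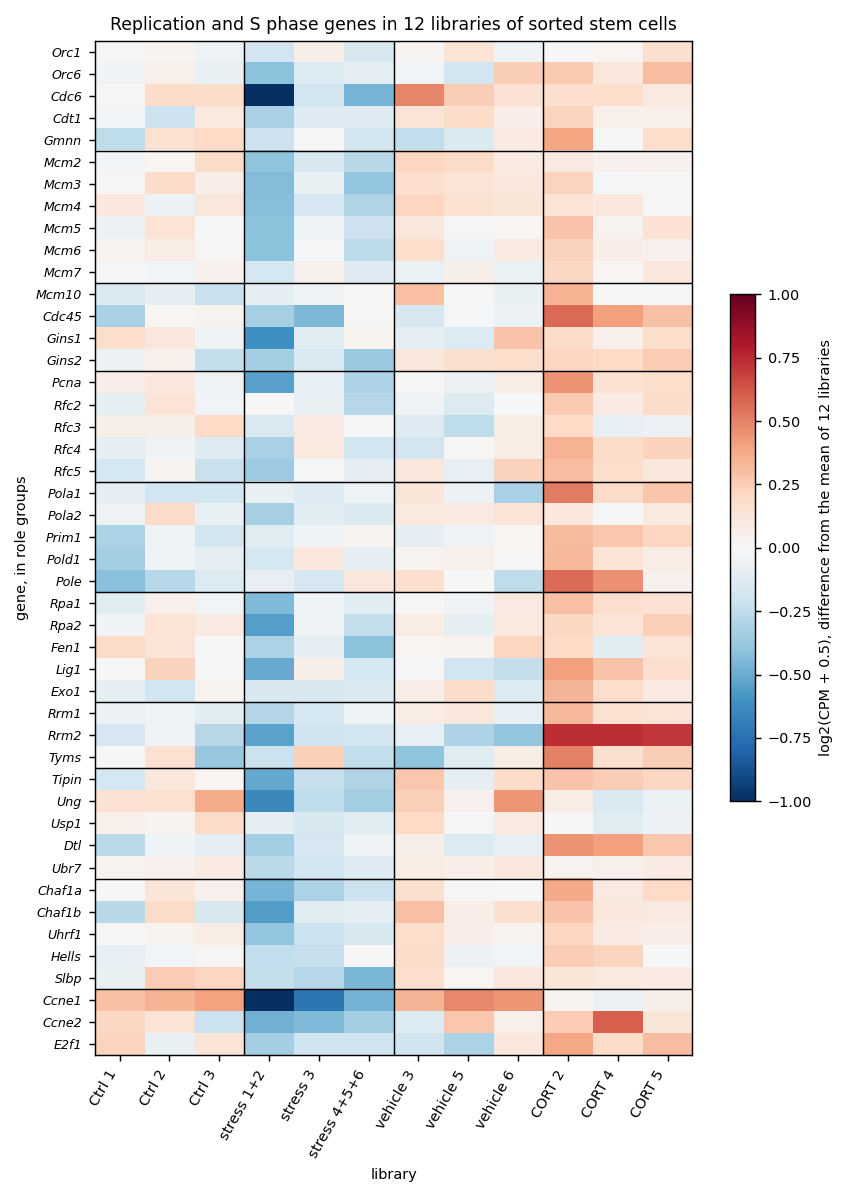
Level of each of the 46 genes (rows, in role groups divided by lines) in each of the 12 libraries (columns), as log2(CPM + 0.5) minus the gene's mean over 12 libraries, from -1 (blue) to 1 (red). Stress 1+2 is the bluest column (median of the 46 genes -0.34), CORT 2 the reddest (median 0.26), and *Rrm2* is red in all 3 CORT columns.

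After CORT, several replication genes stood above vehicle. Compared to vehicle, 33 of 46 genes had a log2 fold change above 0, with a median of 0.12, and the median of all 14656 genes tested was 0.014. *Rrm2*, *Cdc45*, *Lig1*, *Dtl* and *Prim1* were called higher, 5 of 46, and 0 were called lower, in edgeR's quasi-likelihood test with Benjamini-Hochberg adjustment. The share over all genes tested was 3.64% higher and 4.5% lower, so the count of 5 stood against a background in which changes were common. At an unadjusted p under 0.05 there were 16 of 46, where 23.4% of all genes tested were. CORT libraries were all above vehicle libraries in 16 of 46 genes and all below in 1, *Ccne1*, where 14.3% and 14.4% of all genes were separated. The count of 5 was 1, *Rrm2*, without CORT 2 or CORT 4, and 2 without vehicle 5.

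Vehicle was compared with Ctrl as a background. Food and water were withheld from Ctrl mice, and the methods do not say so for vehicle mice. The comparison may therefore hold more than the injection. Between vehicle and Ctrl, 0 of 46 were called in either direction by edgeR, 3 of 46 had an unadjusted p under 0.05, where 11.1% of all genes did, and DESeq2 also called 0. Of all 13642 genes tested, 0.447% were called higher and 0.352% lower. The median log2 fold change was 0.05. *Gins2* (log2 0.23), *Mcm10* (log2 0.24) and *Lig1* (log2 -0.22) were the 3 with an unadjusted p under 0.05. The groups were separated in 4 genes upward and 1 downward, where 8.17% and 8.15% of all genes were.

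**Figure D3:**
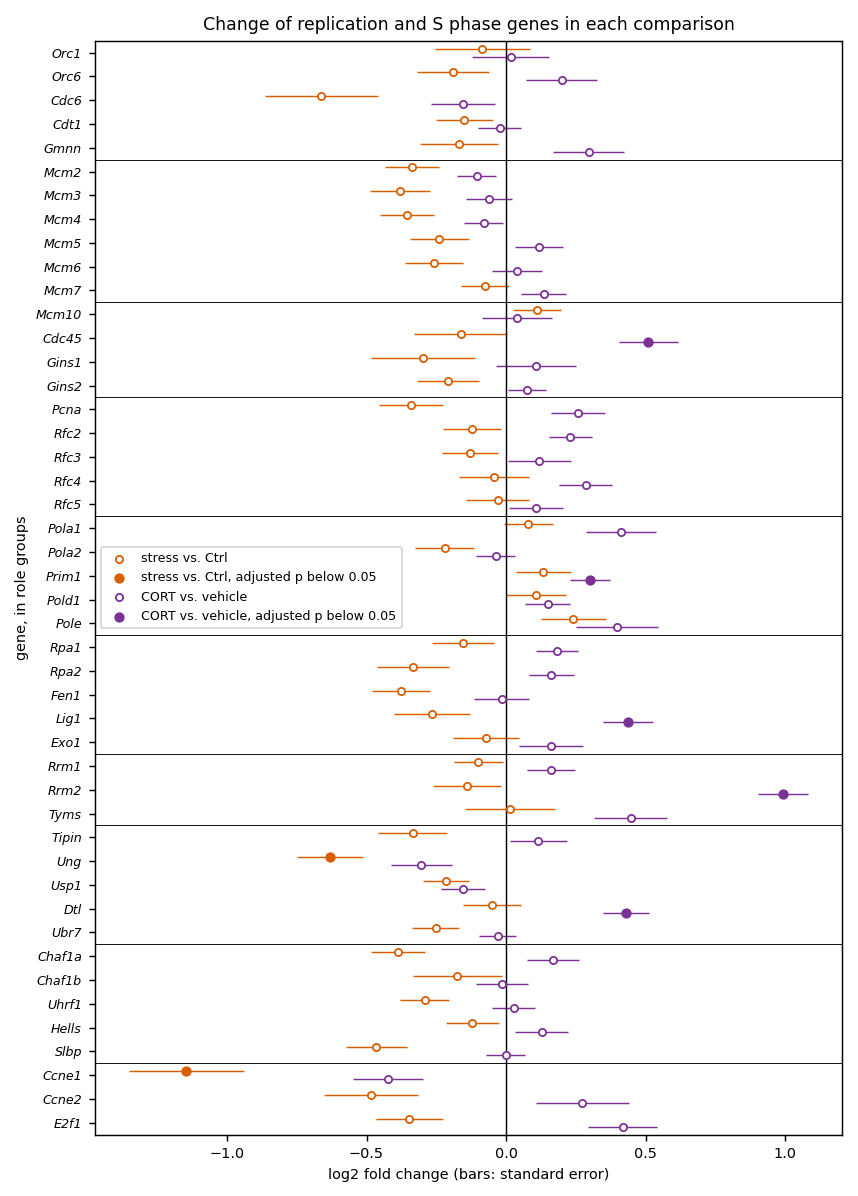
The log2 fold change of each gene in stress vs. Ctrl (orange) and CORT vs. vehicle (purple), with its standard error as a bar and filled points for an adjusted p below 0.05. The orange points lie left of 0 for 40 genes and the purple points right of 0 for 33, and the 7 filled points are *Ccne1* and *Ung* for stress and *Rrm2*, *Cdc45*, *Lig1*, *Dtl* and *Prim1* for CORT.

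Setting the 2 responses side by side, 27 genes were below 0 after stress and above 0 after CORT, 13 were below 0 in both, 6 were above 0 in both, and 0 had the opposite pattern. The 6 were *Mcm10*, *Pola1*, *Prim1*, *Pold1*, *Pole* and *Tyms*, 4 of which belong to the polymerase and primase group. The order of the genes was partly shared, with Pearson's r 0.54 and Spearman's rho 0.48 across the 46 genes, which are not independent of each other and come from libraries that differ in depth between the groups. The CORT response was above the stress response in 45 of 46 genes, the exception being *Mcm10* with a difference of -0.07 on the log2 scale. The median difference was 0.33, while over all 14415 genes it was 0.0088. The test of the difference itself, an interaction term over all 12 libraries in edgeR, called 1 of 46, *Rrm2*, while 0.194% of all genes were called higher and 0.194% lower. At an unadjusted p under 0.05 there were 24 of 46, where 12.5% of all genes tested were. Without stress 3 the test called 4 genes and without vehicle 6 it called 2.

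Origin recognition and licensing held 5 genes. None of them passed a test. *Cdt1*, which brings the MCM ring to the origin and had the highest FPKM of the group, was at 113, 99.6 and 123 CPM in Ctrl and 91.8, 105 and 105 in stress, and at 127, 131 and 121 CPM in vehicle and 134, 119 and 119 in CORT. Both pairs of groups overlapped. *Cdc6*, its partner in loading, had the lowest fold of the group after stress (log2 -0.66 ± 0.20 SE, adjusted p 0.145 in edgeR), from 26.9, 30.4 and 30.4 CPM in Ctrl to 12.8, 23.4 and 19.2 in stress, without overlap. *Orc1* (log2 -0.08), *Orc6* (log2 -0.19), a small subunit of the origin recognition complex, and *Gmnn* (log2 -0.17), the inhibitor of Cdt1, were nearer to 0 after stress. After CORT, the group ranged from log2 -0.15 for *Cdc6* to 0.30 for *Gmnn*. The ratio of *Cdt1* to *Gmnn* FPKM averaged 1.20 ± 0.26 for Ctrl, 1.20 ± 0.092 for stress, 1.48 ± 0.20 for vehicle and 1.18 ± 0.091 for CORT (SD, n = 3), with the highest mean in vehicle.

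The MCM helicase is a ring of 6 related subunits, *Mcm2* to *Mcm7*. All 6 had a log2 fold change below 0 after stress, from -0.38 for *Mcm3* to -0.08 for *Mcm7*, with a median of -0.30, and 0 passed the test. *Mcm6*, the highest per length, was at 339, 348 and 333 CPM in Ctrl and 249, 328 and 276 in stress, and stress 3 lay just under the lowest Ctrl library. In vehicle it was at 374, 319 and 353 CPM and in CORT at 388, 346 and 341, which overlap. *Mcm2*, *Mcm3*, *Mcm4* and *Mcm6* were lower in every stress library than in any Ctrl library, and *Mcm5* (log2 -0.24) and *Mcm7* overlapped. After CORT the 6 subunits lay between log2 -0.11 (*Mcm2*) and 0.13 (*Mcm7*), with *Mcm4* at -0.08, and no pair of groups was separated. Leaving out stress 3 brought *Mcm2*, *Mcm3*, *Mcm4* and *Mcm6* past the threshold, among 10 genes called lower. With no library left out, DESeq2 called *Mcm2*, *Mcm3* and *Mcm4* lower. The edgeR fit on all 12 libraries called *Mcm2* and *Mcm4* lower.

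The subunits kept unequal transcript levels although the ring holds each once. In Ctrl, *Mcm6* made up 26.3% ± 1.36 and *Mcm4* 9.58% ± 0.79 of the summed FPKM of the 6 genes (SD, n = 3). The highest subunit stood 2.44 to 3.15 times above the lowest in the 12 libraries. The summed level was 373 ± 10.1 FPKM for Ctrl, 310 ± 30.1 for stress, 386 ± 9.69 for vehicle and 374 ± 35.5 for CORT (SD, n = 3). The share of *Mcm7* was 22.4, 21.2 and 22.8% in the Ctrl libraries and 25.9, 24.3 and 25.2% in the stress libraries, so it was above Ctrl in all 3. *Mcm7* was the subunit whose level stayed nearest to Ctrl while the sum was lower. It overlaps *Ap4m1* and *Cops6* on the opposite strand and *Mir106b*, *Mir25* and *Mir93* on its own, while *Mcm2* to *Mcm6* overlap no other gene. Whether this bears on its level was not tested.

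Helicase activation held *Cdc45*, *Gins1*, *Gins2* and *Mcm10*, of which 1 was called. *Cdc45*, the subunit that completes the active helicase, was at 26, 28.7 and 27.9 CPM in vehicle and 43.3, 38.8 and 35.6 in CORT, and every CORT library was above every vehicle library. It rose by log2 0.51 ± 0.11 (SE, adjusted p 0.0199, edgeR quasi-likelihood test). Its Ctrl levels were 23.1, 29.4 and 29.8 CPM and its stress levels 23, 21.1 and 29.3, which overlap (log2 -0.16). The call was lost when vehicle 3, vehicle 6, CORT 2 or CORT 4 was left out, at adjusted p 0.0504 to 0.0793, and on both FPKM scales (adjusted p 0.0835 and 0.0848, limma). *Cdc45* overlaps *Ufd1* on the opposite strand, and no source used here says whether strand was used in counting. *Gins1* (log2 -0.30 after stress, 0.11 after CORT) and *Gins2* (log2 -0.21 and 0.07), members of the GINS complex, did not pass. *Mcm10*, a scaffold for the new helicase, was above 0 in both responses (log2 0.11 and 0.04).

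The clamp and its loader held *Pcna* and *Rfc2* to *Rfc5*, and 0 passed a test. *Pcna* was at 297, 305 and 274 CPM in Ctrl and 195, 268 and 229 in stress, which do not overlap (log2 -0.34 ± 0.11 SE, adjusted p 0.184, edgeR). It was at 285, 271 and 297 CPM in vehicle and 387, 314 and 320 in CORT, also without overlap (log2 0.26 ± 0.096 SE, adjusted p 0.148, edgeR). *Pcna* was therefore low in each stress library and high in each CORT library, and the difference of the 2 responses was 0.60 ± 0.16 on the log2 scale (adjusted p 0.112, edgeR). The loader subunits were nearer to 0 after stress, from log2 -0.13 (*Rfc3*) over -0.12 (*Rfc2*) and -0.04 (*Rfc4*) to -0.03 (*Rfc5*). After CORT they were all above 0, from log2 0.11 (*Rfc5*) to 0.29 (*Rfc4*), with *Rfc2* and *Rfc4* separated from vehicle.

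Polymerases and primase were the group that differed in sign from the rest after stress, with 4 of 5 genes above 0 and a median log2 fold change of 0.11. None of the 5 was called or had an unadjusted p under 0.05 in edgeR after stress. The only gene separated from Ctrl was *Pola2*, which was lower. *Prim1*, the catalytic subunit of primase, which lays the RNA primer, was at 69.4, 72.3 and 75.3 CPM in vehicle and 92.4, 89.3 and 86.3 in CORT, with every CORT library above vehicle. It rose by log2 0.30 ± 0.071 (SE, adjusted p 0.0325, edgeR). In Ctrl it was at 59.5, 71.8 and 65.1 CPM and in stress at 68, 71.8 and 75.5 (log2 0.13). Without vehicle 3, vehicle 5, CORT 2, CORT 4 or CORT 5, the adjusted p was 0.0765 to 0.112, and on both FPKM scales it was 0.403 and 0.404 (limma), with log2 fold changes of 0.15. *Pola1* and *Pola2*, the catalytic and the regulatory subunit of polymerase alpha, went apart: *Pola1* was at log2 0.08 after stress and 0.41 after CORT, while *Pola2* was at -0.22 and -0.04. The catalytic subunits of the main leading and lagging strand polymerases, *Pole* (log2 0.24 and 0.40) and *Pold1* (log2 0.11 and 0.15), were above 0 in both.

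Single-strand binding and lagging strand genes were all below 0 after stress, with a median of log2 -0.27. *Lig1*, which seals the Okazaki fragments, was at 137, 161 and 137 CPM in Ctrl and 96.9, 143 and 122 in stress, which overlap (log2 -0.27). It was at 136, 120 and 116 CPM in vehicle and 183, 168 and 155 in CORT, all above vehicle. *Lig1* rose by log2 0.44 ± 0.091 (SE, adjusted p 0.0195, edgeR). Its level in vehicle was below that in Ctrl (log2 -0.22), and without vehicle 5, vehicle 6, CORT 2 or CORT 4 the CORT call was lost, at adjusted p 0.0636 to 0.0704, as it was on both FPKM scales (adjusted p 0.0559 and 0.0579, limma). *Lig1* overlaps *Zswim9* on the opposite strand. *Fen1*, which trims the fragments, was at log2 -0.38 after stress and -0.02 after CORT, and *Rpa2*, a subunit of the protein that coats single strands, at -0.33 and 0.16, both separated from Ctrl. *Rpa1* (log2 -0.15 and 0.18) and *Exo1* (log2 -0.07 and 0.16) were closer to 0.

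Nucleotide supply held the gene with the smallest adjusted p of the 46. *Rrm2* encodes the small subunit of ribonucleotide reductase, which is made in S phase and limits the enzyme. It was at 56.1, 48 and 45.3 CPM in vehicle and 99.8, 99.9 and 97.7 in CORT. The 3 CORT libraries lay within a few CPM of each other and far above all 9 other libraries. *Rrm2* rose by log2 0.99 ± 0.090 (SE, adjusted p 4.3e-04, edgeR), and the adjusted p stayed below 0.05 in all 13 other fits tried (at most 0.00398). With a 2-fold threshold added, *Rrm2* was not called, its log2 fold change being just under 1. In Ctrl it was at 52.9, 58 and 49.1 CPM and in stress at 41, 51.9 and 52.2, which overlap (log2 -0.14, adjusted p 0.657, edgeR). The difference of the 2 responses was 1.14 ± 0.15 on the log2 scale (SE, adjusted p 0.0069, edgeR), and its adjusted p stayed below 0.05 in all 18 other fits tried.

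*Rrm1*, the large subunit that is present through the cycle, moved less than its partner. It was at 208, 214 and 186 CPM in vehicle and 247, 219 and 215 in CORT (log2 0.16 ± 0.086 SE, adjusted p 0.298, edgeR). The ratio of *Rrm2* to *Rrm1* FPKM was 0.522 ± 0.027 for Ctrl, 0.519 ± 0.042 for stress, 0.454 ± 0.048 for vehicle and 0.813 ± 0.057 for CORT (SD, n = 3). *Tyms*, thymidylate synthase, was at log2 0.01 after stress and 0.45 after CORT (adjusted p 0.0722, edgeR), with every CORT library above vehicle.

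**Figure D4:**
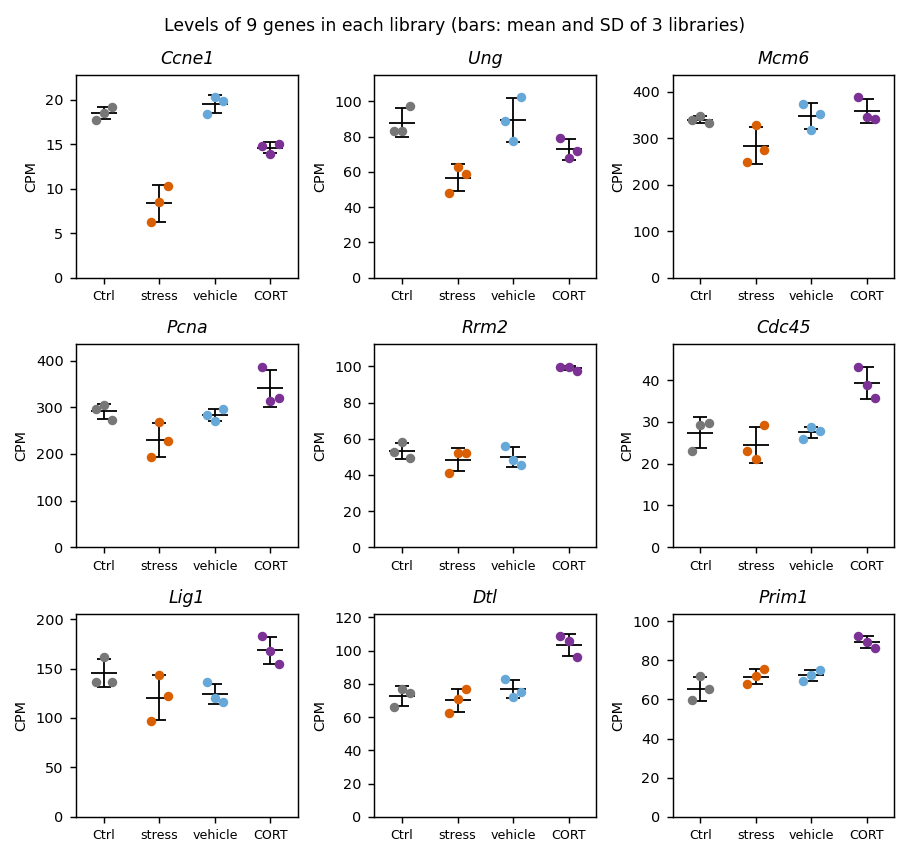
CPM of 9 genes in each library, with the mean and SD of 3 libraries per group as bars. *Ccne1* and *Ung* are low in the 3 stress libraries, *Rrm2* sits between 97.7 and 99.9 CPM in CORT and between 41 and 58 elsewhere, and the CORT libraries of *Pcna*, *Cdc45*, *Lig1*, *Dtl* and *Prim1* all lie above vehicle.

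Among genes of fork protection, repair and ubiquitin signalling, 1 was called in each comparison. *Ung*, the uracil glycosylase that removes misincorporated uracil behind the fork, was at 82.9, 83.4 and 97.3 CPM in Ctrl and 48, 63 and 59.1 in stress. All 3 stress libraries lay below Ctrl. It fell by 0.63 on the log2 scale (SE 0.12, adjusted p 0.0282, edgeR). The call was lost when any Ctrl library, stress 1+2 or stress 4+5+6 was left out, at adjusted p 0.07 to 0.132. It was also lost with no filter on low counts (adjusted p 0.115, edgeR) and on both FPKM scales (0.0572 and 0.0588, limma), with log2 fold changes of -0.63 to -0.68. In vehicle *Ung* was at 89, 77.4 and 102 CPM and in CORT at 79.2, 67.6 and 71.6, which overlap (log2 -0.30, adjusted p 0.134, edgeR).

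*Dtl*, the adaptor by which a ubiquitin ligase removes Cdt1 at PCNA, went the other way. It was at 82.7, 72.2 and 74.9 CPM in vehicle and 109, 106 and 95.8 in CORT, all above vehicle, and rose by log2 0.43 ± 0.083 (SE, adjusted p 0.0143, edgeR). In Ctrl it was at 65.9, 77 and 74.7 CPM and in stress at 62.6, 70.8 and 76.5 (log2 -0.05). Without vehicle 5, CORT 2 or CORT 4 the CORT call was lost, at adjusted p 0.0525 to 0.0658, as it was on both FPKM scales (adjusted p 0.0652 and 0.0655, limma). *Tipin*, of the fork protection complex, was at log2 -0.34 after stress and 0.12 after CORT. The deubiquitinase of PCNA, *Usp1* (log2 -0.22 and -0.16), and the ubiquitin ligase *Ubr7* (log2 -0.25 and -0.03) were below 0 in both, and both were separated from Ctrl after stress.

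Chromatin and histone genes were all below 0 after stress, with a median of log2 -0.29, and 0 passed a test in the main fits. *Slbp* was called lower after stress by DESeq2, with all 12 libraries in the fit, and with at least 10 counts in every library. *Chaf1a* was called lower with all 12 libraries in the fit. *Slbp*, the histone mRNA binding protein and the gene with the highest FPKM of the group, was at 99.2, 125 and 121 CPM in Ctrl and 88.3, 85.5 and 75.9 in stress, without overlap (log2 -0.47 ± 0.11 SE, adjusted p 0.067, edgeR). In vehicle it was at 117, 106 and 112 CPM and in CORT at 113, 112 and 110, which overlap (log2 -0.0010). *Uhrf1*, which reads hemimethylated DNA behind the fork, was at 164, 166 and 171 CPM in Ctrl and 124, 140 and 145 in stress, without overlap (log2 -0.29 ± 0.087 SE, adjusted p 0.138, edgeR). After CORT it was at log2 0.03. *Chaf1a*, the large subunit of the histone chaperone CAF-1, was at log2 -0.39 after stress (adjusted p 0.0853, edgeR) and 0.17 after CORT, and its partner *Chaf1b* at -0.18 and -0.02. *Hells*, a chromatin remodeller, was at log2 -0.12 and 0.13.

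The G1/S switch held *Ccne1*, *Ccne2* and *E2f1*, and all 3 were lower in every stress library than in any Ctrl library. *Ccne1*, cyclin E1, was at 17.8, 18.5 and 19.2 CPM in Ctrl and 6.22, 8.55 and 10.3 in stress. It fell by 1.15 on the log2 scale (SE 0.21, adjusted p 0.0239, edgeR). The call was lost when any Ctrl library or stress 1+2 was left out, at adjusted p 0.0827 to 0.116, with the log2 fold change still -0.97 or lower, and with no filter on low counts (adjusted p 0.0925, edgeR). In vehicle it was at 18.4, 20.3 and 19.8 CPM and in CORT at 14.8, 13.9 and 15.1, again without overlap (log2 -0.42 ± 0.13 SE, adjusted p 0.0746, edgeR). *Ccne1* was the 1 gene of the 46 that lay below its control in every library of both treatments.

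*Ccne2*, cyclin E2, was at 21.2, 20 and 15.7 CPM in Ctrl and 12.9, 13.3 and 14.3 in stress (log2 -0.48 ± 0.17 SE, adjusted p 0.201, edgeR), and at log2 0.27 after CORT. The ratio of *Ccne1* to *Ccne2* FPKM was 1.45 ± 0.33 for Ctrl, 0.888 ± 0.16 for stress, 1.54 ± 0.14 for vehicle and 0.961 ± 0.21 for CORT (SD, n = 3). *E2f1*, the transcription factor of this switch, was at log2 -0.35 after stress and 0.42 after CORT (adjusted p 0.197 and 0.0751, edgeR), separated from its control in both, and its difference of the 2 responses was 0.77 (adjusted p 0.0782, edgeR).

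A list of 60 other replication genes, none of them among the 46, gave the pathway around them. After stress, 0 of 60 were called in either direction by edgeR, where 1.3% of all genes tested were called higher and 0.59% lower. An unadjusted p under 0.05 was found for 7 of 60, where 15.2% of all genes had one, and the median log2 fold change was -0.05. After CORT, 12 of 60 were called higher and 1 lower, with a median of 0.20, where 3.64% of all genes tested were called higher and 4.5% lower. *Dck*, deoxycytidine kinase of the nucleotide salvage route, rose from 35.1, 42.5 and 34.3 CPM in vehicle to 69.6, 60.5 and 58.1 in CORT (log2 0.75 ± 0.11 SE, adjusted p 0.0042, edgeR). The other genes named by the rule were *Tk1* (log2 0.43), thymidine kinase of the same route, *Topbp1* (log2 0.39), which helps to fire origins, *Dscc1* (log2 0.87), of an alternative clamp loader, and *Cdca7*, a partner of Hells, which fell by 0.58 on the log2 scale from 626, 611 and 632 to 365, 409 and 474 CPM. Among the others called higher were *Chek1*, *Ticrr*, *Cdc7*, *Blm* and *Chtf18*.

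Of 34 genes of E2F, RB and CDK control, 0 were called higher and 2 lower after stress, and 4 higher and 2 lower after CORT. Over all genes tested, the shares were 1.3% higher and 0.59% lower after stress, and 3.64% and 4.5% after CORT. *Cdkn1a*, the p21 inhibitor of cyclin-dependent kinases that also binds PCNA, was at 4.75, 9.37 and 8.81 CPM in vehicle and 40.1, 33.3 and 15.6 in CORT (log2 1.95, adjusted p 0.011, edgeR). In Ctrl it was at 9.47, 8.79 and 6.16 CPM and in stress at 16.7, 9.7 and 33.3, without overlap (log2 1.29, adjusted p 0.139, edgeR). *Ccnd1* did not pass in either comparison (log2 -0.20 and 0.30). The repressors *E2f7* (log2 0.93) and *E2f8* (log2 0.47) rose after CORT, and *Ccnd2* (log2 -0.87) and *Cdk6* (log2 -0.35) fell. *Ccnd2* was also lower after stress, at 402, 418 and 494 CPM in Ctrl and 308, 288 and 335 in stress, without overlap. *Myc* was at 257, 294 and 245 CPM in Ctrl and 182, 196 and 196 in stress, without overlap.

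Genes of the next phases lay on the other side of 0 from the replication genes after stress. Of 54 G2 and mitosis genes, 8 were called higher and 0 lower in stress, and 50 were above 0, with a median log2 fold change of 0.33. After CORT, 11 were called higher and 0 lower, with a median of 0.26. Of all genes tested, 1.3% were called higher and 0.59% lower after stress, and 3.64% and 4.5% after CORT. *Nusap1*, a spindle protein, rose in both (log2 0.58 and 0.71), *Cenpe* (log2 0.68), a kinetochore motor, rose after stress, and *Kif20b* (log2 0.51), *Kif11* (log2 0.39) and *Hmgb2* (log2 0.48) after CORT. *Mki67*, the proliferation marker, rose after stress (log2 0.43, adjusted p 0.0282, edgeR) and was at log2 0.18 after CORT (adjusted p 0.226, edgeR). The median of the 46 replication genes in single libraries, as a difference from the mean of 12 libraries, was -0.34, -0.13 and -0.17 in stress and -0.03, 0.05 and -0.00077 in Ctrl, while that of the mitosis genes was 0.27, 0.15 and 0.17 in stress and -0.12, -0.03 and -0.21 in Ctrl. In CORT both medians were above 0 in all 3 libraries, at 0.26, 0.10 and 0.12 for replication and 0.09, 0.04 and 0.10 for mitosis. In vehicle the replication median was also above 0, at 0.075, 0.008 and 0.075, and the mitosis median was at -0.10, -0.07 and -0.21.

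**Figure D5:**
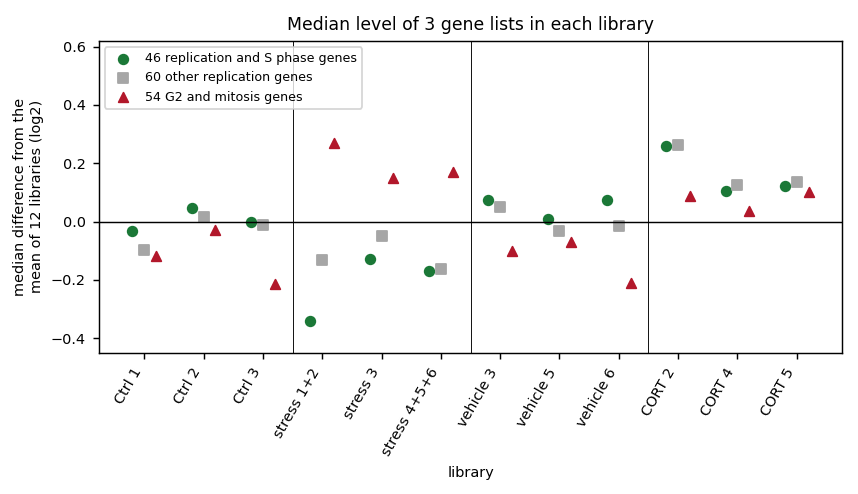
Median over each list of the difference of log2(CPM + 0.5) from its mean over 12 libraries, for the 46 replication and S phase genes (circles), 60 other replication genes (squares) and 54 G2 and mitosis genes (triangles). In the 3 stress libraries the circles lie between -0.34 and -0.13 and the triangles between 0.15 and 0.27, and in CORT both lie above 0. In the vehicle libraries the circles also lie above 0, between 0.008 and 0.075, and the triangles below 0.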

How the data were processed

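RNA was measured in 12 libraries of sorted ISCs, 3 in each of 4 groups taken from the labels. The authors aligned reads to mm10. The methods name HISAT2 2.0.5 and featureCounts, and the submitters' processing notes name HISAT2 2.2.1 and StringTie 2.2.1. The deposited table held estimated counts per gene, and in genes with 1 transcript 1 count stood for about 75 covered bases (median 74.9 to 75.0 per library). The authors also deposited FPKM per gene and library, used for levels between genes and for alternatives, and coverage (a signal), used to find the count unit. Reads carried no molecular identifiers, so depth gives counting error only. Where a symbol was on several rows, the row with the highest mean count was used.

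Counts were tested with edgeR 4.0.16 (quasi-likelihood F-test, TMM, filterByExpr, Benjamini-Hochberg over all genes) in R 4.3.3, in the 6 libraries of a comparison or, for the difference of responses, in all 12. A call is an adjusted p below 0.05 with no fold threshold. The standard error is the absolute log2 fold change divided by the square root of F. CPM used TMM factors over 12 libraries. The tests were tested on simulated data. DESeq2 1.42.0 and limma 3.58.1 served as alternatives. Between libraries of a group, the chi-square per gene was 9.2 to 94.1, computed as if each count were independent. The reads were longer than the about 75 covered bases of a count, so 1 read can give more than 1 count. The value therefore overstates the spread beyond sampling noise, and it also grows with depth.

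The genes and lists were chosen with earlier results of these data known. Every gene of the 46 was named at least once. Values per library were given for each called gene and, in a role group without one, for the gene with the highest mean FPKM. From other lists, at most 5 genes with the smallest adjusted p were named, plus *Cdkn1a*, *Mki67* and *Ccnd1*. Further genes with values per library (*Cdc6*, *Rrm1*, *Uhrf1*, *Ccne2*, *Myc*) and some of the remaining called genes were named after their values were seen. Some single genes of the lists are counted but not reported here. Gene positions in the files are on mm10 (GRCm38), and 40 of the 46 genes had the coordinates of GENCODE M21. Of the 46 genes, 23 overlapped no other gene, 10 overlapped one on the same strand and 17 one on the opposite strand.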

Additional observations from a re-analysis of the deposited data

Results flagged for a closer look

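*Rrm2* differed between the 2 responses in the test of the difference itself, by 1.14 on the log2 scale (edgeR adjusted p 0.0069), with a log2 fold change of 0.99 after CORT and -0.14 after stress, and all 3 CORT libraries were above all 3 vehicle libraries. *Dck* of the other replication genes differed in the same test, by 0.91 on the log2 scale (edgeR adjusted p 0.0358), with 3 of 3 CORT libraries above vehicle.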

How the results depend on the processing

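Over all alternatives, 0 values changed sign, 208 kept their side of the threshold or moved little, 37 lost a call and 28 counts or medians moved. A change of sign was looked for only in called genes, and many of the 208 were counts that stayed at 0. Genes called lower in stress were 2, and became 6 with DESeq2 and with all 12 libraries in the fit, 0 with no filter on low counts, 1 with log2(FPKM + 1) or log2(FPKM + 0.1) in limma, 1 with a 2-fold threshold, and 0 to 10 with 1 library left out. The 0 arose without stress 1+2 or any Ctrl library, the 1 without stress 4+5+6 and the 10 without stress 3. DESeq2 kept *Ccne1* and *Ung* and added *Mcm2*, *Mcm3*, *Mcm4* and *Slbp*. The fit on all 12 libraries kept both and added *Mcm2*, *Mcm4*, *Slbp* and *Chaf1a*. Genes called higher in CORT were 5, and became 9 with DESeq2, 1 with either FPKM scale (*Rrm2*), 0 with a 2-fold threshold, and 1 to 5 with 1 library left out (1 without CORT 2 or CORT 4, 2 without vehicle 5). DESeq2 kept the 5 and added *E2f1*, *Pola1*, *Pole* and *Tyms*. Genes called lower in CORT were 0, and 1 (*Ccne1*) with DESeq2 and on both FPKM scales. For the difference of the responses, 1 became 6 with DESeq2, 4 without stress 3, 2 without vehicle 6 and 1 to 4 over all left-out libraries. Here DESeq2 kept *Rrm2* and added *Chaf1a*, *E2f1*, *Lig1*, *Pcna* and *Slbp*. The median log2 fold change in CORT of 0.12 was 0.0535 with log2(FPKM + 1), where the median of all genes also moved, from 0.014 to -0.048. The median difference of 0.33 was 0.25 without stress 1+2 and 0.42 without stress 3. The median in stress of -0.20 was -0.13 without stress 1+2. The causes were not tested. Where leaving out a library left 2 against 3, edgeR pooled the spread over genes. No paired analysis was possible because the groups compared share fewer than 2 replicate numbers. CORT libraries were on the whole deeper than the others, and the lowest count of any of the 46 genes in a library was 100.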
